A study of Mus musculus with 15 samples.

Results

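The 10 genes described here act in lipid uptake and storage in foam cells, the lipid-laden macrophages of atherosclerotic plaques. They were taken by name as a list: Lpl, Vldlr and Cd36 for uptake, Fabp4 and Fabp5 for carriage inside the cell, Acsl1 and Soat1 for activation and esterification, Plin2 and Hilpda for the lipid droplet, and Pparg for transcriptional control. All 10 were found among the 51763 genes of the count table, and all 10 passed the filter on low counts that left 16919 genes to test. Their levels were compared over all 5 conditions of the study.

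A macrophage takes up lipid by several routes. Lipoprotein lipase (Lpl) frees fatty acids from triglyceride-rich lipoproteins, the scavenger receptor CD36 takes up oxidized low-density lipoprotein and fatty acids, and the VLDL receptor (Vldlr) binds very-low-density lipoprotein. Inside the cell fatty acids are carried by fatty acid-binding proteins, joined to coenzyme A by acyl-CoA synthetases and built into triglycerides, cholesterol is esterified by SOAT1, and these neutral lipids are kept in droplets coated by perilipin 2 (Plin2). PPARγ (Pparg), a nuclear receptor activated by fatty acid derivatives, controls many genes of this kind, Cd36 and Fabp4 among them.

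RNA was sequenced from 15 libraries of bone marrow-derived macrophages (BMDMs), matured with M-CSF from wild-type female C57BL/6NTac mice aged 8 to 10 weeks, with 3 libraries for each condition. PBS was the unstimulated control, frHMGB1 and dsHMGB1 (the fully reduced and the disulfide isoform of HMGB1, a nuclear protein that acts as an alarm signal outside the cell) were used at 5 µg/mL, LPS (a bacterial ligand of TLR4) at 1 µg/mL, and LPS/IFNγ, the classical M1 stimulus, joined LPS to 20 ng/mL of IFNγ. The labels give the LPS dose in LPS/IFNγ as 1 µg/mL in their treatment field and as 100 ng/mL in their protocol text, so LPS and LPS/IFNγ may differ in LPS dose as well as in IFNγ. Every stimulation lasted 24 h, and the methods of the study describe no loading of the sequenced cells with lipoprotein. Cells of 5 mice were pooled before seeding, so the 3 libraries of a condition are technical replicates, n counts libraries, and each p covers only the spread between cultures and libraries of 1 pool. The frHMGB1 was made in-house and the dsHMGB1 came from another laboratory, so the isoform and the preparation cannot be told apart. By the study's methods the buffers for frHMGB1 held the reductant DTT, and none is described for the PBS control. In the comparison of frHMGB1 with PBS, frHMGB1 and any DTT carried with it cannot be told apart.

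The libraries held 40934540 to 80925478 counts. All 8 macrophage markers (Adgre1, Csf1r, Cd68, Lyz2 and others) passed the filter and summed to 21750 to 26250 CPM (counts scaled to the library total) in PBS, 27070 to 27350 in frHMGB1, 18420 to 19660 in dsHMGB1, 14910 to 15530 in LPS, and 13160 to 13470 after LPS/IFNγ. Lyz2 made up most of this sum, at 9140 to 20450 CPM over the libraries. Adipocytes also express Lpl, Pparg, Fabp4 and Plin2, but 0 of 8 adipocyte markers passed the filter, their sum was at most 0.119 CPM in any library, Cfd, Lep and Pck1 were at 0, and Adipoq had 11 counts in all libraries together. The summed levels of other marker lists were 121.4 to 288.1 CPM for fibroblasts (Col1a1 and Col1a2 for the most part), 92.2 to 181.8 for endothelium (Vwf and Kdr for the most part, with Cdh5 at most at 1.13), 323.5 to 545.4 for dendritic cells (Itgax for the most part), 13.5 to 35.5 for lymphocytes (Cd4 for the most part, with Cd3e, Cd3g and Cd8a at 0), at most 5.56 for neutrophils (S100a8 for the most part) and at most 0.0891 for erythroid cells, and their part in the results was not tested. The values below are normalized counts, scaled by DESeq2's median ratios. Scaling by total counts instead moved the median log2 fold change of all genes against PBS by -0.36 for dsHMGB1, -0.68 for LPS and -0.69 for LPS/IFNγ, and it changed the numbers of all genes called higher and lower from 3936 and 4092 to 2615 and 6689 in dsHMGB1, from 4515 and 6121 to 2653 and 9458 in LPS, and from 4914 and 5284 to 2976 and 8782 in LPS/IFNγ.

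PBS replicate 3 stood apart from every other library, and the 10 genes were among those it moved. Its correlation with the other PBS libraries was 0.935 and 0.929 (Pearson's r of log2 CPM), against at least 0.994 for all other pairs of replicates. Against the mean of the other PBS libraries, its normalized count was 3.59 times as high for Fabp4, 2.19 for Hilpda and 1.57 for Lpl, and 0.385 times as high for Cd36, 0.408 for Acsl1 and 0.547 for Vldlr, while Pparg (1.27), Plin2 (1.27), Fabp5 (1.10) and Soat1 (0.848) moved less. Across protein-coding genes its median log2 ratio to the other PBS libraries was 0.62 for the 3367 with the shortest exons in sum and -0.75 for the 3368 with the longest. Differences of the 10 genes from PBS that passed the test are therefore given with and without it. The deviations of dsHMGB1 replicate 1 from its condition mean correlated with those of PBS replicate 3 (Pearson's r = 0.46 over all genes tested). That dsHMGB1 library stayed in the fits without PBS replicate 3. All groups of a fit share 1 estimate of the spread, so leaving out PBS replicate 3 also changed tests between conditions other than PBS.

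In BMDMs stimulated with dsHMGB1, LPS or LPS/IFNγ, Pparg, Plin2, Soat1, Fabp4 and Fabp5 were lower than in PBS, and Acsl1 was much higher. After frHMGB1, 1 of the 10 genes, Fabp5, passed the test. In bulk RNA, a lower level of a gene in each cell and fewer cells that express it cannot be told apart. A gene was called where its adjusted p in edgeR's quasi-likelihood test, corrected over all genes tested, was under 0.05. By this rule 1 gene was higher and 0 were lower in frHMGB1, where 1.31% and 5.69% of all genes tested were called higher and lower. In dsHMGB1 1 was higher and 6 were lower, beside 23.3% and 24.2% of all genes (47.4% in either direction). In LPS 1 was higher and 6 were lower, beside 26.7% and 36.2% of all genes (62.9%). In LPS/IFNγ 1 was higher and 6 were lower, beside 29.0% and 31.2% of all genes (60.3%). The share of the 10 genes called in LPS and LPS/IFNγ, 7 of 10, was thus near the share of all genes called there, and the count alone is not a result about these genes. The median log2 fold change of the 10 came to -0.94 for dsHMGB1, -0.29 for LPS and -0.60 for LPS/IFNγ, against -0.10, -0.21 and -0.12 over all genes tested. These comparisons share the PBS libraries. The same numbers of members, 1 higher and 6 lower, were called in all 3 under scaling by total counts. That scaling called more of all genes lower, 6689 against 4092 in dsHMGB1, 9458 against 6121 in LPS, and 8782 against 5284 in LPS/IFNγ. The unchanged member counts are read against these larger numbers, and alone they are not a result about these genes.

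Without PBS replicate 3, the counts of members called grew. In frHMGB1 3 were higher (Fabp5, Lpl and Fabp4) and 1 was lower (Soat1), beside 8.41% and 9.09% of all genes. In dsHMGB1 2 were higher and 7 lower (29.8% and 29.0% of all genes), with Lpl added to the higher and Cd36 to the lower. In LPS 2 were higher and 6 lower (32.9% and 38.3%), with Hilpda added to the higher, Cd36 added to the lower and Lpl lost. In LPS/IFNγ 2 were higher and 7 lower (33.3% and 34.4%), with Hilpda and Cd36 added.

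By the fold change rule of the study's methods, a log2 fold change above 2 or below -2 with no test, Acsl1 was above in dsHMGB1, LPS and LPS/IFNγ, where 8.43%, 10.9% and 12.1% of all genes were. Below -2 were Pparg and Fabp4 in dsHMGB1 (4.76% of all genes), Pparg and Soat1 in LPS (14%), and Pparg and Fabp4 in LPS/IFNγ (9.69%). In frHMGB1 no member was past either limit, beside 0.609% of all genes above and 6.83% below. Fabp4 was past the limit only with PBS replicate 3 in the control group.

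**Figure D1:**
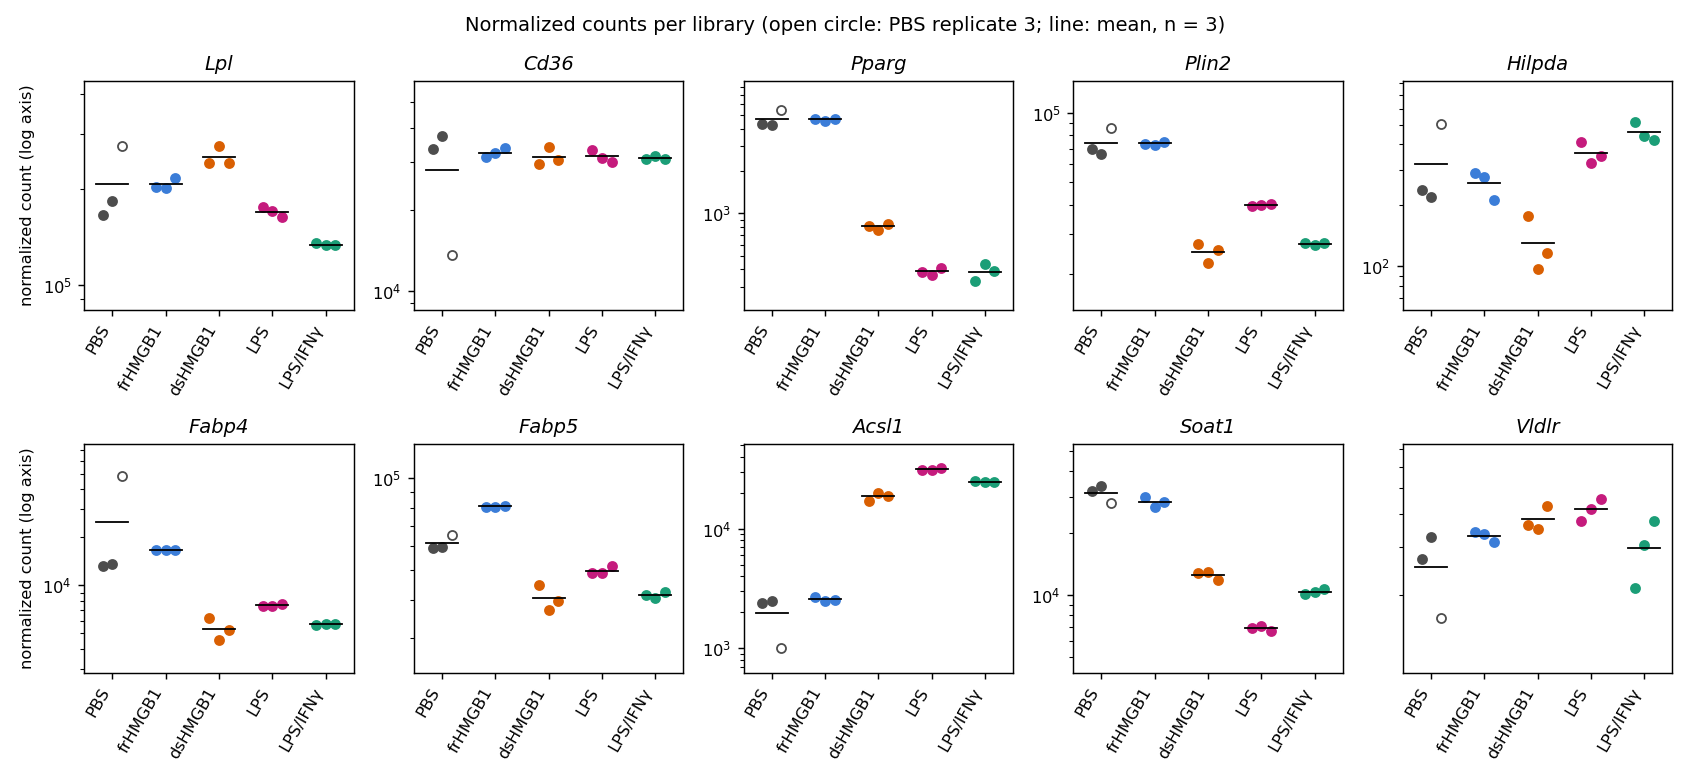
Normalized counts (log axis, 1 panel per gene) of the 10 genes in each of the 15 libraries, with a line at the mean of the 3 libraries of a condition and PBS replicate 3 as an open circle. Acsl1 rises from 996.9 to 2499 in PBS to 17045 or more in dsHMGB1, LPS and LPS/IFNγ, and Pparg falls from 4276 or more to 845.7 or less.

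Among the 3 genes of lipid uptake, Lpl stood highest, with a mean of 50510 normalized counts per kb of transcript in PBS, against 8271 for Cd36 and 3.19 for Vldlr. Lipoprotein lipase is secreted by macrophages and works at the cell surface. The normalized counts of Lpl (ENSMUSG00000015568, chr8:68880491-68907448, plus strand, GRCm38) were 166257, 183563 and 273698 in PBS, 203402, 202279 and 216868 in frHMGB1, 243051, 274400 and 241820 in dsHMGB1, 175701, 170449 and 164108 in LPS, and 135075, 133344 and 133537 in LPS/IFNγ. The dsHMGB1 libraries lay above all libraries but PBS replicate 3, and the LPS/IFNγ libraries lay below all others. Lpl was 1.55-fold lower in LPS/IFNγ than in PBS (log2 fold change -0.63 ± 0.16 SE, n = 3 and 3, edgeR adjusted p = 0.000693; -0.395 ± 0.07 without PBS replicate 3, adjusted p = 5.53e-06). In LPS the fold was 1.22 (log2 -0.29 ± 0.16, edgeR adjusted p = 0.0344), with libraries that overlapped PBS, and the call was lost in 13 alternatives, among them DESeq2's Wald test, the replicate block, each LPS library left out and the fit without PBS replicate 3 (log2 -0.05, adjusted p = 0.183). Under scaling by total counts the LPS change was larger (log2 -0.95, adjusted p = 2.35e-06), with libraries below all PBS libraries in CPM. That scaling moved the median of all genes in LPS by -0.68. In dsHMGB1 the difference from PBS did not pass (log2 0.28 ± 0.16, edgeR adjusted p = 0.0847), and without PBS replicate 3 it did (0.53 ± 0.07, adjusted p = 3.66e-06), while its sign turned under scaling by total counts (-0.04, adjusted p = 0.737).

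In order of level, Lpl stood highest in dsHMGB1, then in PBS, frHMGB1, LPS and LPS/IFNγ. Among neighbours in that order, frHMGB1 and LPS differed (edgeR adjusted p = 0.0285), and dsHMGB1 from PBS, PBS from frHMGB1 (adjusted p = 0.946) and LPS from LPS/IFNγ (adjusted p = 0.103) did not pass the test. The last of these had libraries that did not overlap and passed without PBS replicate 3 (adjusted p = 6.2e-05). The high place of dsHMGB1 in this order rests on 1 pool of cells. By qPCR on individual mice the study reports Lpl as downregulated by dsHMGB1, and it states that this differed from its RNA-seq.

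Cd36 (ENSMUSG00000002944, chr5:17781690-17888801, minus strand) stood at a like level in normalized counts in all libraries but PBS replicate 3, and this depended on the scaling. Its normalized counts were 33401, 37315 and 13623 in PBS, 31156, 32271 and 33738 in frHMGB1, 29447, 34208 and 30434 in dsHMGB1, 33344, 31033 and 30092 in LPS, and 30819, 31423 and 30813 in LPS/IFNγ. All 5 conditions overlapped. The log2 fold change from PBS was 0.20, 0.16, 0.16 and 0.14 in frHMGB1, dsHMGB1, LPS and LPS/IFNγ, each ± 0.27 (SE), and its 95% intervals reached from -0.39 to 0.74 over the 4 comparisons. Without PBS replicate 3 the signs turned, to -0.12 (edgeR adjusted p = 0.243), -0.18 (adjusted p = 0.0215), -0.18 (adjusted p = 0.0108) and -0.20 (adjusted p = 0.00423), so that Cd36 was then 1.13, 1.13 and 1.15-fold lower in dsHMGB1, LPS and LPS/IFNγ. No neighbours in its order of levels differed with all libraries in the fit. In CPM, Cd36 was at 785.2, 881.2 and 255.6 in PBS, 695.4 to 764.1 in frHMGB1, 502.2 to 583.6 in dsHMGB1, 403.7 to 459.6 in LPS and 416.6 to 430.7 in LPS/IFNγ. Under scaling by total counts the log2 fold changes of dsHMGB1, LPS and LPS/IFNγ from PBS were -0.26, -0.585 and -0.60 without passing (adjusted p = 0.491, 0.098 and 0.0945), and LPS and LPS/IFNγ passed as lower than frHMGB1 (adjusted p = 0.0383 and 0.0319).

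Vldlr (ENSMUSG00000024924, chr19:27216484-27254231, plus strand) was close to the limit of detection, with 14 to 52 counts a library. Its normalized counts were 27.2, 32.8 and 16.4 in PBS, 34.2, 33.7 and 31.3 in frHMGB1, 36.5, 35.2 and 42.9 in dsHMGB1, 37.5, 41.8 and 45.6 in LPS, and 21.2, 30.5 and 37.5 in LPS/IFNγ. No comparison passed, with log2 fold changes from PBS of 0.33 ± 0.30 (SE), 0.54 ± 0.29, 0.66 ± 0.30 and 0.19 ± 0.30 and edgeR adjusted p of 0.594, 0.139, 0.0862 and 0.635. The dsHMGB1 and LPS libraries lay above all PBS libraries. The difference between LPS and PBS passed in 2 alternatives, DESeq2's Wald test and the fit without PBS replicate 2, and its sign turned under scaling by total counts (log2 -0.06). Without PBS replicate 3 the log2 fold changes were 0.14, 0.34, 0.46 and -0.01 (adjusted p = 0.819, 0.371, 0.225 and 0.834).

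The fatty acid-binding proteins FABP4 and FABP5 carry fatty acids in the cytosol, and both genes fell after dsHMGB1, LPS and LPS/IFNγ. The normalized counts of Fabp4 (ENSMUSG00000062515, chr3:10204088-10208576, minus strand) were 13277, 13531 and 48159 in PBS, 16635, 16663 and 16746 in frHMGB1, 6257, 4535 and 5262 in dsHMGB1, 7398, 7432 and 7589 in LPS, and 5614, 5720 and 5735 in LPS/IFNγ. All 9 libraries of the last 3 conditions lay below all 6 of PBS and frHMGB1, and PBS replicate 3 lay far above the rest. Against PBS, Fabp4 was 4.67-fold lower in dsHMGB1 (log2 -2.22 ± 0.38 SE, edgeR adjusted p = 0.000226), 3.34-fold lower in LPS (-1.74 ± 0.38, adjusted p = 0.000753) and 4.39-fold lower in LPS/IFNγ (-2.13 ± 0.38, adjusted p = 0.000183). Leaving out PBS replicate 3 shrank these folds to 2.51, 1.80 and 2.37, with adjusted p of 1.41e-10, 3.09e-08 and 1.49e-10. In frHMGB1 the log2 fold change was -0.58 ± 0.38 (adjusted p = 0.497) and turned to 0.32 ± 0.10 (adjusted p = 0.0199) without that library. Against the frHMGB1 libraries Fabp4 was 3.12-fold lower in dsHMGB1 (edgeR adjusted p = 0.00157).

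Fabp5 (ENSMUSG00000027533, chr3:10012548-10016607, plus strand) was the 1 gene of the 10 called after frHMGB1 with all libraries fitted. Its normalized counts were 59256, 59329 and 65183 in PBS, 80692, 80704 and 81036 in frHMGB1, 44869, 36948 and 39652 in dsHMGB1, 48889, 48975 and 51426 in LPS, and 41328, 40569 and 42461 in LPS/IFNγ. The frHMGB1 libraries lay close together and above all others. Fabp5 was 1.32-fold higher in frHMGB1 than in PBS (log2 0.40 ± 0.08 SE, edgeR adjusted p = 0.00463; without PBS replicate 3, 0.45 ± 0.07, adjusted p = 0.000105). That call was lost in 3 alternatives: protein-coding genes only (log2 0.32, adjusted p = 0.111), no filter on low counts, and only PBS and frHMGB1 in the fit. It was 1.51-fold lower in dsHMGB1 (-0.60 ± 0.08, edgeR adjusted p = 3.09e-05), 1.23-fold lower in LPS (-0.30 ± 0.08, adjusted p = 0.00144) and 1.48-fold lower in LPS/IFNγ (-0.56 ± 0.08, adjusted p = 2.32e-05). The folds without PBS replicate 3 were 1.47, 1.20 and 1.44. Between the HMGB1 isoforms the difference was wider, with dsHMGB1 2.00-fold below frHMGB1 (log2 -0.997 ± 0.08, edgeR adjusted p = 1.81e-07). Reads of Fabp5 can also match 5 processed pseudogenes, of which Gm6166 (98.3% identical over 409 bases) held 2.42% as many counts as Fabp5 and Gm14328 (97.3% identical) 0.963%. The level of Fabp5 is therefore uncertain, and by how much was not tested.

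Acsl1 was the 1 gene of the 10 that rose in all 3 proinflammatory stimulations. With all libraries and the main scaling its log2 changes exceeded those of Pparg in size, and under scaling by total counts those of Pparg were the larger in each (-2.88, -4.28 and -4.28, against 2.84, 3.255 and 2.92 for Acsl1). Without PBS replicate 3 that of Pparg was the larger in LPS/IFNγ (-3.49, against 3.33). Acsl1 encodes an acyl-CoA synthetase that joins long-chain fatty acids to coenzyme A, the step that commits them to triglyceride synthesis or oxidation. The normalized counts of Acsl1 (ENSMUSG00000018796, chr8:46471037-46536051, plus strand) were 2387, 2499 and 996.9 in PBS, 2704, 2500 and 2513 in frHMGB1, 17045, 20036 and 18973 in dsHMGB1, 31238, 30914 and 32183 in LPS, and 25013, 24486 and 24576 in LPS/IFNγ. The libraries of dsHMGB1, LPS and LPS/IFNγ lay in 3 separate bands above every PBS and frHMGB1 library. Acsl1 was 9.52-fold higher in dsHMGB1 than in PBS (log2 3.25 ± 0.26 SE, edgeR adjusted p = 4.24e-07), 16.0-fold higher in LPS (4.002 ± 0.26, adjusted p = 4.78e-08) and 12.6-fold higher in LPS/IFNγ (3.65 ± 0.26, adjusted p = 9.06e-08). When PBS replicate 3, where Acsl1 was lowest, was left out, the log2 fold changes were 2.93, 3.68 and 3.33 (SE 0.07 each). In frHMGB1 the log2 fold change was 0.39 ± 0.26 (adjusted p = 0.496), and 0.08 ± 0.07 without that library (adjusted p = 0.546).

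The order of Acsl1 levels was LPS, LPS/IFNγ, dsHMGB1, frHMGB1 and PBS. Of the neighbours only dsHMGB1 and frHMGB1 differed with all libraries fitted (edgeR adjusted p = 1.34e-06). LPS against LPS/IFNγ (adjusted p = 0.42) and LPS/IFNγ against dsHMGB1 (adjusted p = 0.283) passed once PBS replicate 3 was left out (adjusted p = 4.78e-05 and 3.23e-05). The differences themselves hardly moved: log2 -0.349 and -0.350 for LPS/IFNγ against LPS, and -0.402 and -0.395 for dsHMGB1 against LPS/IFNγ. Their SE fell from 0.255 to 0.061. The promoter at the first of 2 starts listed for Acsl1 is shown since it was the gene that rose, from 250 bases before its start to 50 after it (RefSeq, GRCm38.p6, chr8:46470787-46471086, plus strand). Capitals mark the GC box GGGCGG on either strand, which has 7 matches here and at least 1 in 35.7% of the 32851 promoters of this length. The window at the other start of Acsl1 held 0 GC boxes.

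Acsl1 promoter: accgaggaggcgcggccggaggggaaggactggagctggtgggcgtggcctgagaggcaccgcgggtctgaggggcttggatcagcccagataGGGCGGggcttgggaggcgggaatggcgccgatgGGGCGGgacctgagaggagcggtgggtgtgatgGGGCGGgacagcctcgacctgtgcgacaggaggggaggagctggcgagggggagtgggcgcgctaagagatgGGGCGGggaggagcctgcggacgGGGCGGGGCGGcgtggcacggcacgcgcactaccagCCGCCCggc

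Soat1 encodes the enzyme that esterifies free cholesterol for storage, and it fell in the same 3 conditions. The normalized counts of Soat1 (ENSMUSG00000026600, chr1:156424525-156474331, minus strand) were 31925, 34058 and 27986 in PBS, 29911, 26953 and 28415 in frHMGB1, 12773, 12991 and 11876 in dsHMGB1, 6925, 7102 and 6720 in LPS, and 10142, 10354 and 10711 in LPS/IFNγ. PBS and frHMGB1 overlapped, and the other 3 conditions formed separate bands below them, with LPS lowest. Soat1 was 2.50-fold lower in dsHMGB1 than in PBS (log2 -1.32 ± 0.08 SE, edgeR adjusted p = 1.14e-07), 4.53-fold lower in LPS (-2.18 ± 0.08, adjusted p = 4.37e-10) and 3.01-fold lower in LPS/IFNγ (-1.59 ± 0.08, adjusted p = 9.44e-09). The folds without PBS replicate 3 were 2.64, 4.80 and 3.19. In frHMGB1 the log2 fold change was -0.14 ± 0.08 (adjusted p = 0.575), and it passed without that library (-0.21 ± 0.06, adjusted p = 0.0174). In the order PBS, frHMGB1, dsHMGB1, LPS/IFNγ and LPS, all neighbours but PBS and frHMGB1 differed.

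Plin2 and Hilpda belong to the lipid droplet. Both were lower after dsHMGB1, and Plin2 alone was called lower after LPS and LPS/IFNγ. PLIN2 coats droplets and shields them from lipases, and HILPDA, known as a hypoxia-inducible gene, inhibits the triglyceride lipase ATGL. The normalized counts of Plin2 (ENSMUSG00000028494, chr4:86648386-86670060, minus strand) were 69485, 65993 and 85841 in PBS, 73584, 72770 and 74730 in frHMGB1, 26889, 22380 and 25432 in dsHMGB1, 39361, 39739 and 40113 in LPS, and 27167, 26759 and 27192 in LPS/IFNγ. Its levels in dsHMGB1 and LPS/IFNγ overlapped, LPS lay above both, and PBS and frHMGB1 lay above LPS. Plin2 was 2.96-fold lower in dsHMGB1 than in PBS (log2 -1.57 ± 0.10 SE, edgeR adjusted p = 8.11e-09), 1.86-fold lower in LPS (-0.89 ± 0.10, adjusted p = 7.19e-07) and 2.73-fold lower in LPS/IFNγ (-1.45 ± 0.10, adjusted p = 8.64e-09). With PBS replicate 3 left out the folds were 2.73, 1.72 and 2.52. In frHMGB1 the log2 fold change was -0.001 ± 0.10 (adjusted p = 0.933).

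Hilpda (ENSMUSG00000043421, chr6:29272488-29275446, plus strand) fell after dsHMGB1 alone among the comparisons with PBS. Its normalized counts were 238.6, 218.8 and 501.4 in PBS, 288.6, 276.9 and 211.4 in frHMGB1, 177.0, 97.6 and 116.8 in dsHMGB1, 411.1, 324.3 and 348.5 in LPS, and 512.2, 439.9 and 420.4 in LPS/IFNγ. The dsHMGB1 libraries lay below all others, and the LPS and LPS/IFNγ libraries lay above PBS replicates 1 and 2. Hilpda was 2.44-fold lower in dsHMGB1 than in PBS (log2 -1.29 ± 0.31 SE, edgeR adjusted p = 0.00235; 1.76-fold without PBS replicate 3, adjusted p = 0.00122). In LPS and LPS/IFNγ the log2 fold changes of 0.18 ± 0.31 and 0.52 ± 0.31 did not pass (adjusted p = 0.675 and 0.123), and without PBS replicate 3 both did, at 0.65 ± 0.20 (adjusted p = 0.0106) and 0.99 ± 0.20 (adjusted p = 0.000344). These rises turned to -0.45 and -0.10 when libraries were scaled by total counts (adjusted p = 0.125 and 0.731). The difference between dsHMGB1 and the other stimulations was tested on its own, and Hilpda was 2.77-fold lower in dsHMGB1 than in LPS (log2 -1.47 ± 0.32, edgeR adjusted p = 0.00246) and 3.51-fold lower than in LPS/IFNγ (-1.81 ± 0.31, adjusted p = 0.000293).

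The promoters of Plin2 and Hilpda are shown as those of the droplet genes (RefSeq, GRCm38.p6, Plin2 at chr4:86670010-86670309 on the minus strand, Hilpda at chr6:29272376-29272675 on the plus strand, the latter at the second of 2 starts listed). Capitals mark 3 motifs on either strand: the nuclear receptor core AGGTCA, the core of the hypoxia response element ACGTG and the GC box GGGCGG. Of all 32851 promoters, 16.3% held AGGTCA, 19.6% ACGTG and 35.7% GGGCGG. The Plin2 window held AGGTCA with its first base at -218 from the start (on the minus strand of the gene), ACGTG on both strands of the overlapping palindrome CACGTG at the start and a GC box at +15. The Hilpda window held ACGTG at -43, a GC box at +27 and no AGGTCA, and the window at the first start of Hilpda held 0 matches of ACGTG or AGGTCA and 1 GC box. The NF-κB motif, which 0.411% of promoters held, was in neither window.

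Plin2 promoter: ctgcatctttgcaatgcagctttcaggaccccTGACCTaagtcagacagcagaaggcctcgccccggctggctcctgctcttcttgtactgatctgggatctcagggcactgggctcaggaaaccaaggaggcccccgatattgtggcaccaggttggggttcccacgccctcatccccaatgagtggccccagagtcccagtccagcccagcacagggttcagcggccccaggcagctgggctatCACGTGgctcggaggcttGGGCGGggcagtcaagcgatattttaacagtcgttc

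Hilpda promoter: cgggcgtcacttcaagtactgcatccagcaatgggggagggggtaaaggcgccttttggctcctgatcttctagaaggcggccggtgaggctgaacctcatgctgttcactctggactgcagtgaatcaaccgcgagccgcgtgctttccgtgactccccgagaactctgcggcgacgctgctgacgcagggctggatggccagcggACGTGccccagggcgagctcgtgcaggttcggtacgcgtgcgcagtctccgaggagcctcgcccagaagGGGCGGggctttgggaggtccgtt

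Pparg made the largest fall of the 10 genes. The normalized counts of Pparg (ENSMUSG00000000440, chr6:115360951-115490399, plus strand) were 4327, 4276 and 5473 in PBS, 4728, 4560 and 4712 in frHMGB1, 813.2, 765.2 and 845.7 in dsHMGB1, 383.9, 363.2 and 411.7 in LPS, and 328.8, 433.6 and 390.3 in LPS/IFNγ. PBS and frHMGB1 overlapped, dsHMGB1 lay far below them, and LPS and LPS/IFNγ overlapped each other lower still. Pparg was 5.81-fold lower in dsHMGB1 than in PBS (log2 -2.54 ± 0.13 SE, edgeR adjusted p = 8.66e-10), 12.1-fold lower in LPS (-3.60 ± 0.13, adjusted p = 2.58e-11) and 12.2-fold lower in LPS/IFNγ (-3.61 ± 0.13, adjusted p = 2.32e-11). The folds were 5.34, 11.2 and 11.3 without PBS replicate 3. The log2 fold change in frHMGB1 was -0.01 ± 0.12 (adjusted p = 0.965). Of the neighbours in the order PBS, frHMGB1, dsHMGB1, LPS and LPS/IFNγ, frHMGB1 differed from dsHMGB1 (edgeR adjusted p = 9.54e-10) and dsHMGB1 from LPS (adjusted p = 1.27e-05).

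The promoter at the first of 3 starts listed for Pparg (RefSeq, GRCm38.p6, chr6:115360894-115361193, plus strand) is shown as that of the gene that fell furthest. It held 1 AGGTCA with its first base at -28 and 1 GC box, on the minus strand, at -177, both in capitals, and neither ACGTG nor the NF-κB motif. The window at the second start held AGGTCA at -9 and 2 GC boxes, and that at the last held 0 of either. The direct repeat of AGGTCA with 1 base between its copies, to which PPARγ binds with RXR, was in 0.0396% of all promoters and in none of the 12 windows found for 7 of the 10 genes. Lpl, Fabp4 and Fabp5 were not matched in the table of promoters.

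Pparg promoter: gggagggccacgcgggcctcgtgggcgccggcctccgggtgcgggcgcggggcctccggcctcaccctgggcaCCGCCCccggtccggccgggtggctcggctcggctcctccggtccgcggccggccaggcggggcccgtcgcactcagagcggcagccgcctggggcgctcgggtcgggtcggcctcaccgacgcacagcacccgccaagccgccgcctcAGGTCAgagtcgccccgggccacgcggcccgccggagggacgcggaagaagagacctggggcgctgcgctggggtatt

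**Figure D2:**
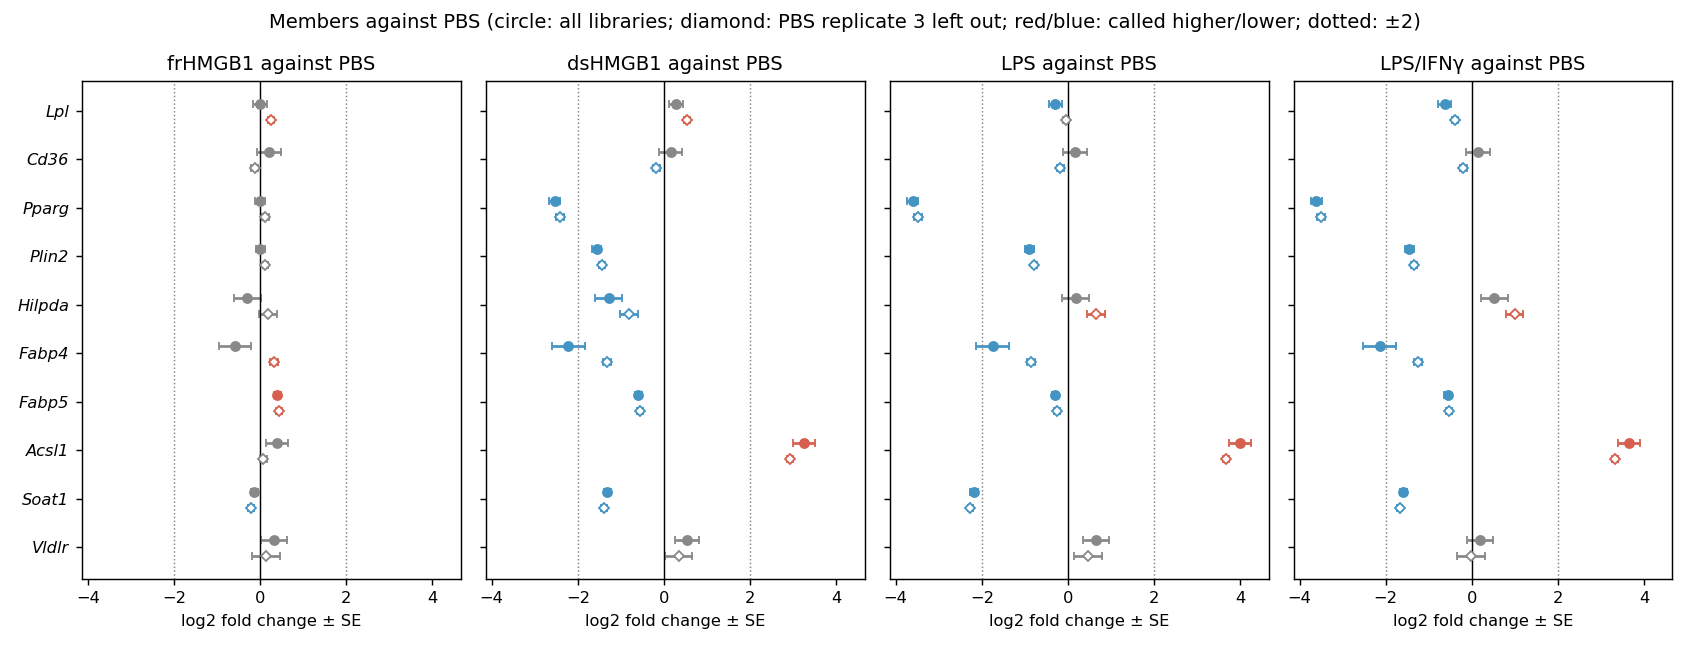
Log2 fold change from PBS with its SE (x axis) for each of the 10 genes in the 4 stimulations, with all libraries (circles, above) and without PBS replicate 3 (open diamonds, below), coloured red or blue where that fit called the gene higher or lower, and dotted lines at 2 and -2. Acsl1 lies at 3.25, 4.002 and 3.65 in dsHMGB1, LPS and LPS/IFNγ and Pparg at -2.54, -3.60 and -3.61, while circle and diamond part most for Fabp4.

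The HMGB1 isoforms were compared directly, with means that involve no PBS library. Relative to frHMGB1, dsHMGB1 had 1 member higher (Acsl1, 7.27-fold) and 6 lower, beside 27.7% and 23.1% of all genes (under scaling by total counts the number of all genes called lower went from 3905 to 6340). The 6 were Pparg (5.78-fold), Fabp4 (3.12-fold), Plin2 (2.96-fold), Soat1 (2.27-fold), Fabp5 (2.00-fold) and Hilpda (1.99-fold), with edgeR adjusted p of at most 0.00919. Lpl was 1.22-fold higher without passing (adjusted p = 0.11), although its libraries did not overlap, and passed without PBS replicate 3 in the fit (adjusted p = 0.000812). Under scaling by total counts its sign turned (log2 -0.12, adjusted p = 0.341) and its libraries overlapped in CPM.

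The 3 proinflammatory stimulations were then set against each other. Compared with LPS, dsHMGB1 left Lpl 1.49-fold (edgeR adjusted p = 0.00281), Pparg 2.09-fold (adjusted p = 1.27e-05) and Soat1 1.81-fold higher, and Plin2 1.596-fold (adjusted p = 0.00019), Hilpda 2.77-fold and Fabp5 1.23-fold (adjusted p = 0.0364) lower. These are 3 members higher and 3 lower, beside 15.8% and 10.6% of all genes, and scaling by total counts changed the numbers for all genes from 2670 and 1791 to 4661 and 885. Under that scaling Fabp5 turned to a log2 fold change of 0.04 (adjusted p = 0.794) and the other 5 kept their direction. The call of Fabp5 was also lost in 10 other alternatives, among them protein-coding genes only in the main scaling (adjusted p = 0.0731). Acsl1 was 1.68-fold lower in dsHMGB1 than in LPS with libraries that did not overlap, and did not pass in the main fit (adjusted p = 0.0589). It came to pass in 7 alternatives, among them the fit without PBS replicate 3 (adjusted p = 1.15e-08). Fabp4 was 1.40-fold lower, with an adjusted p (0.425) that passed only without that library (9.6e-05).

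Compared with LPS/IFNγ, dsHMGB1 left 3 members higher and 1 lower, beside 16.5% and 16.7% of all genes (2797 and 2824, or 4806 and 1663 under scaling by total counts). Lpl was 1.89-fold, Pparg 2.10-fold and Soat1 1.21-fold higher (edgeR adjusted p = 0.0381 for Soat1), and Hilpda was 3.51-fold lower. The call of Soat1 was lost in 10 alternatives, among them no filter on low counts and each dsHMGB1 or LPS/IFNγ library left out. Plin2, Fabp4 and Fabp5 did not pass, and the 95% intervals of their log2 differences were -0.32 to 0.08, -0.84 to 0.66 and -0.19 to 0.12. Under scaling by total counts Fabp5 passed as higher (log2 0.29, adjusted p = 0.0212), and without PBS replicate 3 Acsl1 passed as lower (1.31-fold, adjusted p = 3.23e-05). LPS/IFNγ differed from LPS by 1 member higher, Soat1 (1.504-fold, edgeR adjusted p = 0.000377), and 1 lower, Plin2 (1.47-fold, adjusted p = 0.000706), beside 16.3% and 9.36% of all genes. The log2 difference of Pparg was -0.01 ± 0.14 (adjusted p = 0.894). Without PBS replicate 3, Lpl, Fabp4, Fabp5 and Acsl1 also passed as lower in LPS/IFNγ than in LPS, by 1.20-fold (Fabp5) to 1.31-fold (Fabp4). In the comparison of LPS/IFNγ with LPS, IFNγ and the LPS dose cannot be told apart.

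**Figure D3:**
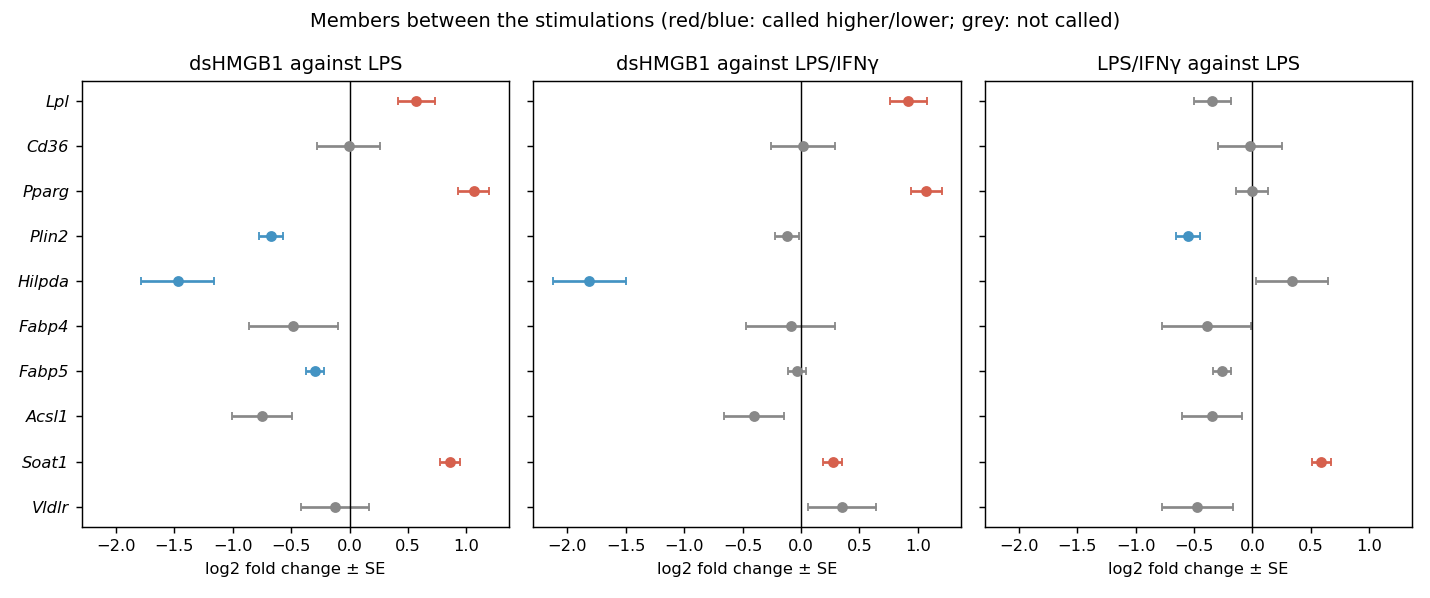
Log2 fold change with its SE (x axis) of the 10 genes between pairs of the proinflammatory stimulations, red or blue where called higher or lower in the first condition named and grey where not called. Lpl, Pparg and Soat1 lie to the right in both dsHMGB1 panels, at 0.57, 1.06 and 0.86 against LPS, and Hilpda lies furthest to the left, at -1.47 and -1.81.

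Levels of different genes were compared per kb of the principal transcript. In PBS the means were 62060 normalized counts per kb for Fabp5, 50510 for Lpl, 39070 for Plin2, 27890 for Fabp4 (14960 without PBS replicate 3), 8271 for Cd36, 3742 for Soat1, 2655 for Pparg, 503.2 for Acsl1, 325.5 for Hilpda and 3.19 for Vldlr. In LPS they were 50420 for Fabp5, 41330 for Lpl, 21050 for Plin2, 9264 for Cd36, 8340 for Fabp4, 8069 for Acsl1, 826.1 for Soat1, 367.9 for Hilpda, 218.6 for Pparg and 5.22 for Vldlr. Acsl1 thus went from below Soat1 and Pparg to above both, and the 3 genes with the highest levels kept their order.

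Genes around the 10 in the same pathway were counted from 4 lists. Of 15 further genes of uptake and transport tested (16 listed), 1 was called higher and 0 lower than PBS in frHMGB1, 4 and 6 in dsHMGB1, 5 and 7 in LPS, and 5 and 7 in LPS/IFNγ. The share of all genes called in either direction, which each list's counts are read against, was 47.4% for dsHMGB1, 62.9% for LPS and 60.3% for LPS/IFNγ. For frHMGB1, 1.31% of all genes were called higher and 5.69% lower, or 8.41% and 9.09% without PBS replicate 3. Scaling by total counts called fewer of all genes higher and more lower in dsHMGB1, LPS and LPS/IFNγ. All genes called higher and lower were then 2615 and 6689 in dsHMGB1, 2653 and 9458 in LPS, and 2976 and 8782 in LPS/IFNγ. Each list's counts under that scaling are read against these numbers. The scavenger receptor gene Olr1, which encodes the oxidized LDL receptor LOX-1, rose most, from 8.65 ± 5.52 (SD, n = 3) normalized counts in PBS to 1713 ± 101 after dsHMGB1, 3426 ± 89.3 after LPS and 15412 ± 775.5 after LPS/IFNγ (log2 7.46 ± 0.25, 8.46 ± 0.25 and 10.63 ± 0.25 SE, edgeR adjusted p of at most 4.32e-10). Its difference between LPS/IFNγ and LPS was 2.17 ± 0.09 on the log2 scale (adjusted p = 1.2e-05). Msr1, the class A scavenger receptor, rose from 4576 ± 190.7 to 41406 ± 2450, 69562 ± 746.7 and 23204 ± 714.1 in the same conditions, and it was the 1 gene of this list called in frHMGB1 (5697 ± 247.4, log2 0.32 ± 0.06, adjusted p = 0.0257). Under scaling by total counts 0 genes of this list were called in frHMGB1, and without PBS replicate 3 there were 5, all higher, with 5 higher and 8 lower in each of the other 3 conditions. Angptl4, an inhibitor of lipoprotein lipase and a known PPAR target, fell most, from 1671 ± 75.3 to 66.0 ± 10.5, 70.6 ± 26.7 and 79.1 ± 20.0 (log2 -4.67, -4.56 and -4.40, adjusted p of at most 5.96e-09). The log2 changes without PBS replicate 3 were 7.18, 8.17 and 10.34 for Olr1, 3.15, 3.89 and 2.31 for Msr1, and -4.70, -4.598 and -4.445 for Angptl4.

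Of 17 genes of acyl-CoA, glycerolipid and sterol ester synthesis tested (19 listed), 0 were called in frHMGB1, 8 were higher and 2 lower in dsHMGB1, 6 and 4 in LPS, and 6 and 7 in LPS/IFNγ. Soat2, the second sterol esterification gene, rose from 15.6 ± 1.68 (SD, n = 3) to 189.5 ± 6.88 normalized counts after dsHMGB1, 205.5 ± 41.5 after LPS and 221.7 ± 49.3 after LPS/IFNγ. Lpin1, a phosphatidate phosphatase of triglyceride synthesis, fell from 2928 ± 944 to 183.0 ± 35.2, 90.5 ± 10.1 and 137.4 ± 15.7 (log2 -4.00, -5.02 and -4.41, edgeR adjusted p of at most 2.2e-08). The counts for this list, like those for all genes, depended on the scaling. With total counts they were 5 higher and 4 lower in dsHMGB1, 3 and 9 in LPS, and 3 and 9 in LPS/IFNγ. They were, without PBS replicate 3, 10 and 4, 8 and 5, and 7 and 8, and the log2 changes were 3.69, 3.801 and 3.91 for Soat2 and -4.24, -5.27 and -4.67 for Lpin1. In frHMGB1 that fit called 1 gene of the list higher and 2 lower.

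Of 14 genes of the droplet coat and of lipolysis tested (19 listed), 0 were called in frHMGB1, 2 were higher and 4 lower in dsHMGB1, 2 and 9 in LPS, and 2 and 9 in LPS/IFNγ. Nceh1, a cholesterol ester hydrolase, fell from 24972 ± 3462 (SD, n = 3) normalized counts to 9238 ± 639.9, 5395 ± 364.6 and 9630 ± 131.3, and the droplet coat gene Plin3 from 8864 ± 581.8 to 3622 ± 63.7, 2996 ± 157.9 and 2434 ± 49.6. Lipe, hormone-sensitive lipase, rose from 1237 ± 277 to 2299 ± 141.2 in dsHMGB1 (log2 0.90 ± 0.14, edgeR adjusted p = 4.28e-05), to 1952 ± 73.6 after LPS (log2 0.66 ± 0.14, adjusted p = 0.000735) and to 2053 ± 101.7 after LPS/IFNγ (log2 0.735 ± 0.14, adjusted p = 0.000186), and Rab18, a GTPase of the droplet surface, rose from 2823 ± 735.6 to 4677 ± 657.4, 4824 ± 368 and 5530 ± 36.1. Scaling by total counts called 6689, 9458 and 8782 of all genes lower in dsHMGB1, LPS and LPS/IFNγ. The main scaling called 4092, 6121 and 5284 lower. For this list the numbers under scaling by total counts were 1 and 10 in dsHMGB1, 0 and 11 in LPS, and 0 and 11 in LPS/IFNγ. The rises of Lipe and Rab18 in LPS and LPS/IFNγ were thus lost. In dsHMGB1 1 of the 2 rises was lost too, with log2 changes of 0.56 for Lipe and 0.335 for Rab18. Without PBS replicate 3, 7 genes of the list were lower in dsHMGB1 and 8 and 9 in LPS and LPS/IFNγ. In frHMGB1 that fit called 1 gene of the list higher and 1 lower.

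Of 21 genes of the PPAR and RXR family, their cofactors and known PPAR targets tested (24 listed), 0 were called in frHMGB1, 2 were higher and 11 lower in dsHMGB1, 2 and 14 in LPS, and 2 and 12 in LPS/IFNγ. Angptl4 and Plin4 are on this list as well as on the earlier ones. Rxra, which encodes the partner of PPARγ on DNA, fell from 5877 ± 447.4 (SD, n = 3) normalized counts to 2694 ± 310.3 after dsHMGB1, 879.9 ± 91.3 after LPS and 1546 ± 63.2 after LPS/IFNγ. The coactivator gene Ppargc1b rose from 168.6 ± 28.9 to 301.7 ± 29.6, 577.3 ± 24.5 and 1952 ± 21.4. Nr1h3, which encodes the oxysterol receptor LXRα, rose to 7808 ± 488.2 in dsHMGB1 from 3361 ± 848.9 in PBS (log2 1.22 ± 0.15, edgeR adjusted p = 2.42e-06) and fell to 1248 ± 53.5 in LPS/IFNγ (-1.43 ± 0.15, adjusted p = 2.65e-07), and in LPS it was at 3264 ± 145.7 (-0.04 ± 0.15, adjusted p = 0.518). Leaving out PBS replicate 3 gave log2 changes of 1.44, -1.215 and 0.18 for these. Its difference between dsHMGB1 and LPS/IFNγ was 2.65 ± 0.15 on the log2 scale (adjusted p = 5.05e-09). By qPCR the study reports Nr1h3 as higher in dsHMGB1 than in frHMGB1, by a fold change it calls relatively small. The median log2 fold change of this list was -0.60, -0.87 and -1.11 in dsHMGB1, LPS and LPS/IFNγ, beside -0.10, -0.21 and -0.12 over all genes tested. Its counts without PBS replicate 3 were 3 higher and 15 lower in dsHMGB1, 2 and 16 in LPS, 2 and 17 in LPS/IFNγ, and 1 and 1 in frHMGB1. Under scaling by total counts they were 1 and 15, 1 and 16, 1 and 17, and 1 and 0. More of all genes were also called lower in dsHMGB1, LPS and LPS/IFNγ under that scaling. The list's medians were then -0.95, -1.55 and -1.78 in dsHMGB1, LPS and LPS/IFNγ, beside -0.46, -0.89 and -0.81 over all genes tested.

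**Figure D4:**
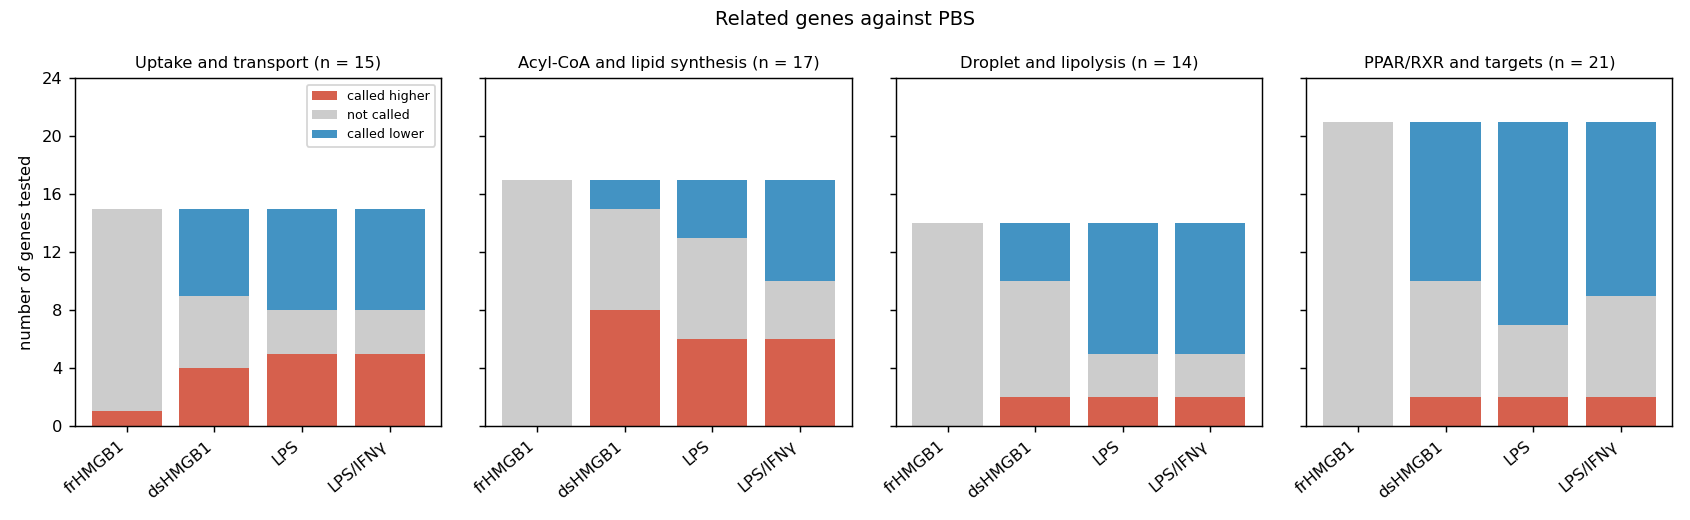
Number of genes tested (y axis) called higher (red), not called (grey) and called lower (blue) than PBS in each stimulation, for the 4 lists of related genes. With all libraries fitted, 1 gene of the 4 lists is called in frHMGB1. The PPAR and RXR list has 11, 14 and 12 genes called lower in dsHMGB1, LPS and LPS/IFNγ.

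The 2 genes whose levels followed each member most closely over the 15 libraries were sought among 10102 protein-coding genes whose mean normalized count reached 100, by Pearson's r of log2 CPM. Here, unlike above, the library totals behind CPM were adjusted by edgeR's TMM factors. The genes are named in pairs. For Pparg they were Arhgap9 and Pik3r2 (r = 0.997 each), for Acsl1 Zcchc2 (0.999) and Pnpt1 (0.998), for Soat1 Slc40a1 (0.995) and Sord (0.994), for Fabp4 Paip2 (0.993) and Mcee (0.992), and for Plin2 Calm2 (0.986) and Trim47 (0.981). For Cd36 they were Zbtb18 and Ugt1a7c (0.976 each), for Lpl Rtl8b (0.963) and Rgs2 (0.961), for Fabp5 Lrrc45 (0.953) and Lmo2 (0.947), for Hilpda Pdzk1ip1 (0.951) and Fabp7 (0.936), and for Vldlr Caskin2 (0.923) and Ubox5 (0.892). These values describe 15 libraries that share 5 conditions and 1 outlying library.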

How the data were processed

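Gene counts of 15 RNA-seq libraries were analysed. The deposited table holds counts per Ensembl gene, which the authors made from reads aligned to GRCm38; CASAVA, STAR and DESeq2 are named in the submitters' processing notes without versions, and the counting program is not given in the sources used here. No column was left without a sample. Of the 51763 genes, 51661 were matched to GENCODE M21 and 22712 had no count. Libraries were grouped by their labels, 3 for each condition, and totalled 40934540 to 80925478 counts. Reads without molecular identifiers are not independent molecules.

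Genes were filtered with filterByExpr (minimum count 10, total 15), scaled by TMM and tested with edgeR 4.0.16 (glmQLFit and glmQLFTest, 15 libraries in 1 fit, no covariates, R 4.3.3), with Benjamini-Hochberg adjustment over 16919 genes and an adjusted p threshold of 0.05. Normalized counts, log2 fold changes and their SE came from DESeq2 1.42.0 without shrinkage. The edgeR p and the DESeq2 SE thus come from separate fits. Fitting was tested on simulated data. Tables were made with Python 3.11.15 and pandas 2.3.3. The 10 members and the lists of related genes were chosen with earlier results of these data known. All members are described, and of each list the largest rise and fall among its calls whose mean normalized count reached 100. Near-identical copies were sought among annotated transcripts (at least 200 bases aligned, 90% identity). Promoters came from RefSeq (GRCm38.p6), 250 bases before to 50 after a start. The alternatives were another test, normalization, filter, set of genes or libraries, a replicate block and scaling by total counts.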

Additional observations from a re-analysis of the deposited data

How the results depend on the processing

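The calls against PBS of Pparg, Plin2, Soat1, Fabp4 and Acsl1 in dsHMGB1, LPS and LPS/IFNγ are those stated with and without PBS replicate 3 in the report. Over all member results and alternatives, 1754 values kept their direction and side of the threshold, 47 came to pass it, 39 ceased to pass it and 72 changed sign. Where the cause of a change is not given by the construction of the alternative, the cause was not tested. The libraries come from 1 pool of cells, so no alternative bears on other mice, and Vldlr is limited by its low counts.

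With DESeq2's Wald test, 502 of all genes were higher in frHMGB1 than in PBS, 2 members were higher in LPS than in PBS and 2 lower in LPS/IFNγ than in LPS, the last also with RLE normalization (2). A filter of at least 1 CPM in 3 libraries left 547 of all genes lower in frHMGB1. Without a filter, 96 of all genes and 0 members were higher in frHMGB1, and 2 members were higher in dsHMGB1 than in frHMGB1. A log2 limit of 1 put 5 members below it in dsHMGB1 and 4 in LPS/IFNγ.

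Fitting only the conditions compared gave 7 genes higher and 182 lower in frHMGB1 than in PBS (0 members higher), 2493 and 2254 in dsHMGB1 and 3685 lower in LPS. It gave 2 members higher in dsHMGB1 than in frHMGB1, 3224 genes and 5 members lower in dsHMGB1 than in LPS, 4296 genes higher and 4284 lower in dsHMGB1 than in LPS/IFNγ (2 members lower), and 4564 higher and 4435 lower in LPS/IFNγ than in LPS (2 and 5 members). With protein-coding genes only, 41 were higher and 29 lower in frHMGB1, and 0 members were higher. Scaling by total counts gave 2615 genes higher and 6689 lower than PBS in dsHMGB1, 2653 and 9458 in LPS, 2976 and 8782 in LPS/IFNγ, 6340 lower in dsHMGB1 than in frHMGB1, 4661 and 885 against LPS and 4806 and 1663 against LPS/IFNγ. It called 2 members lower in LPS/IFNγ than in LPS and put 4 members below -2 in LPS/IFNγ. Chosen after seeing the data were this scaling and the joint choice of protein-coding genes without PBS replicate 3. The joint choice gave 668 genes higher and 1 member lower in frHMGB1, 2 members higher in dsHMGB1, LPS, LPS/IFNγ and dsHMGB1 against frHMGB1, 3246 genes and 5 members lower in dsHMGB1 than in LPS, 4210 genes higher and 2 members lower in dsHMGB1 than in LPS/IFNγ, 3032 genes and 5 members lower in LPS/IFNγ than in LPS, and 1 member below -2 in dsHMGB1 and 1 in LPS/IFNγ.

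Leaving out each library in turn, the numbers of all genes called higher and lower ranged over 114 to 1459 and 704 to 1576 in frHMGB1, 3466 to 5170 and 3253 to 5034 in dsHMGB1, 4330 to 5698 and 5291 to 6640 in LPS, and 4491 to 5769 and 4681 to 5965 in LPS/IFNγ. Between conditions they ranged over 4177 to 6212 and 3275 to 5708 for dsHMGB1 against frHMGB1, 1944 to 4433 and 1306 to 4032 against LPS, 2266 to 4840 and 2268 to 4398 against LPS/IFNγ, and 1990 to 4353 and 1301 to 4213 for LPS/IFNγ against LPS. Members called higher and lower ranged over 1 to 3 and 0 to 1 in frHMGB1, 1 to 2 and 6 to 7 in dsHMGB1, 1 to 2 and 5 to 6 in LPS, and 1 to 2 and 6 to 7 in LPS/IFNγ. They ranged over 1 to 2 and 6 to 6 for dsHMGB1 against frHMGB1, 3 to 3 and 2 to 5 against LPS, 2 to 3 and 1 to 2 against LPS/IFNγ, and 1 to 1 and 1 to 5 for LPS/IFNγ against LPS. Members below -2 ranged over 1 to 2 in dsHMGB1, 2 to 3 in LPS and 1 to 2 in LPS/IFNγ. PBS replicate 3 gave the highest value of each range for all genes in the comparisons with PBS.

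Log2 fold changes that changed sign when a library was left out ranged as follows. In frHMGB1 against PBS they were Cd36 (-0.124 to 0.470), Fabp4 (-0.879 to 0.318), Hilpda (-0.499 to 0.183), Lpl (-0.133 to 0.249), Plin2 (-0.067 to 0.124) and Pparg (-0.061 to 0.120). In the other comparisons with PBS they were Cd36 in dsHMGB1 (-0.176 to 0.415), LPS (-0.176 to 0.423) and LPS/IFNγ (-0.199 to 0.403), Hilpda in LPS (-0.024 to 0.653) and Vldlr in LPS/IFNγ (-0.020 to 0.408). In dsHMGB1 they were Cd36 against LPS (-0.073 to 0.038) and, against LPS/IFNγ, Cd36 (-0.051 to 0.061), Fabp4 (-0.214 to 0.018) and Fabp5 (-0.113 to 0.028). In LPS/IFNγ against LPS they were Cd36 (-0.061 to 0.012) and Pparg (-0.103 to 0.090).

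Under scaling by total counts the sign changed for Lpl (0.074), Plin2 (0.058) and Pparg (0.052) in frHMGB1, Lpl (-0.044) and Cd36 (-0.258) in dsHMGB1, Cd36 (-0.585), Hilpda (-0.452) and Vldlr (-0.060) in LPS, and Cd36 (-0.597), Hilpda (-0.102) and Vldlr (-0.525) in LPS/IFNγ. It also changed in dsHMGB1 for Lpl (-0.118) and Vldlr (-0.198) against frHMGB1, for Cd36 (0.327), Fabp5 (0.037) and Vldlr (0.211) against LPS, for Plin2 (0.204), Fabp4 (0.235) and Fabp5 (0.289) against LPS/IFNγ, and for Pparg (0.003) in LPS/IFNγ against LPS. With protein-coding genes only it changed for Cd36 in dsHMGB1 against frHMGB1 (0.008), LPS (0.044) and LPS/IFNγ (-0.010) and in LPS/IFNγ against LPS (0.054), and for Pparg in the last (0.069). With these genes and without PBS replicate 3 it changed in frHMGB1 for Lpl (0.183), Cd36 (-0.190), Pparg (0.054), Plin2 (0.058), Hilpda (0.116) and Fabp4 (0.252), for Cd36 in dsHMGB1 (-0.181), LPS (-0.227) and LPS/IFNγ (-0.178), in dsHMGB1 against frHMGB1 (0.009), LPS (0.046) and LPS/IFNγ (-0.003), and in LPS/IFNγ against LPS for Cd36 (0.049) and Pparg (0.064). Cd36 in dsHMGB1 against LPS and Pparg in LPS/IFNγ against LPS also changed with the 1 CPM filter (0.005 and 0.011) and with only the conditions compared (0.021 and 0.007).

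The replicate numbers did not pair the libraries: same-numbered libraries of different conditions correlated at -0.386 to 0.375 in their deviations, 1 of 30 pairs was over 0.1, and 6 of 15 libraries were closest to their own number. With the replicate number as a block, 176 genes were higher and 839 lower in frHMGB1, 3856 and 3755 in dsHMGB1, 4487 and 5849 in LPS, and 4883 and 5013 in LPS/IFNγ. The block called 1 member higher and 0 lower, 1 and 6, 1 and 5, and 1 and 6 in these, and changed the sign of Lpl (0.009) and Plin2 (0.004) in frHMGB1.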
